A study of Homo sapiens with 8 samples.

Results

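The 60 genes described here encode the machinery of mitosis, and they were taken as a fixed list of symbols and looked up in the first column of the gene count tables of both cell lines. The list was chosen with earlier results of these data known. All 60 were found among the 58828 genes of the tables, and all 60 passed the filter on low counts that left 19784 genes for testing. RNA was sequenced from 2 human prostate cancer cell lines, 22RV1 and DU145. Each line was transduced with a lentiviral, doxycycline-inducible vector that was either empty (vector) or carried HA-tagged PAGE4, a cancer-testis protein, and was selected with puromycin. Doxycycline was given to vector and PAGE4 cultures alike, and each culture then received PBS or H2O2 for 12 h before collection. The labels and methods give 200 mM H2O2, which is high for cultured cells, and the dose could not be checked from these files. This gave 8 conditions with 1 library each: 22RV1 vector PBS, 22RV1 vector H2O2, 22RV1 PAGE4 PBS, 22RV1 PAGE4 H2O2 and the same 4 in DU145. Every construct was represented by a single selected culture per line, so that the construct and the culture cannot be told apart. The study asked how PAGE4 bears on prostate cancer cells under oxidative stress, and here the mitosis genes were compared between H2O2 and PBS, between PAGE4 and vector, and between the lines.

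Most genes of mitosis are transcribed in a wave that rises in G2 and ends as cells divide. In quiescent or arrested cells the DREAM complex, built from MuvB proteins, E2F4 and p130 or p107, sits on the cell cycle homology region (CHR) of their promoters and keeps them silent. In cycling cells MuvB instead joins B-MYB and then FOXM1 at the same element, while NF-Y binds CCAAT boxes nearby. The products drive entry into mitosis (CDK1 with cyclin B), build the spindle, attach chromosomes to it, hold back anaphase until every kinetochore is attached, and split the cell. Their summed mRNA is widely used as a measure of how many cells of a culture are dividing. In bulk RNA, fewer cells in G2 and mitosis and less mRNA of these genes per cell cannot be told apart.

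Libraries held 25482984 to 43310401 counts, the lowest being 22RV1 PAGE4 H2O2, and the lowest count of any member was 42, for CENPA in that library. PAGE4 itself had 0 or 1 count in the vector libraries and 1001 to 1489 counts in the PAGE4 libraries. The luminal markers KLK2, KLK3, FOLH1, HOXB13 and TMPRSS2 were expressed in 22RV1 and were near 0 in DU145, whereas VIM, AXL and CAV1 were high in DU145. CD44 and EGFR, also listed as markers of DU145, were present in both lines. Levels are given in CPM, the counts of a gene scaled to a common library size, with TMM factors. A gene is called where the edgeR quasi-likelihood test, adjusted by Benjamini and Hochberg over all 19784 genes, gave an adjusted p under 0.05, and intervals are 95% limits that cover counting error only.

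Most promoters of these genes carry the letters of the elements named above, which is why a few are printed. RefSeq promoters (GRCh38.p14) of 250 bases before to 50 after a start of transcription were matched for 53 of the 60 genes, with the first listed start taken for the 8 members that have several. The letters TTTGAA or TTCGAA, the core of the CHR, stood on either strand in 41 of the 53 (77.4%) and in 16.6% of all 27305 promoters in the table. CCAAT stood on either strand in 40 of the 53 (75.5%) and in 35.7% of all promoters. Both were present in 32 members (60.4%) and in 6.58% of all promoters, and 25 members (47.2%) but 11.3% of all promoters held at least 2 CCAAT letters. Below are the last 150 bases before the start of CCNB2, PLK1, CDC20, HMMR and PRR11, which hold both, and of CENPE, whose window holds neither. Capitals mark the CHR letters on either strand (TTTGAA is read as TTCAAA on the other) and the CCAAT letters on either strand, where the other strand is written ATTGG.
CCNB2 (chr15:59104996-59105145, plus strand): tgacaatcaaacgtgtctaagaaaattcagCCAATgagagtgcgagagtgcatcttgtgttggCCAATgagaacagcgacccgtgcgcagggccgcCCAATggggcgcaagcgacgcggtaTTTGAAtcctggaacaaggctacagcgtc
PLK1 (chr16:23678739-23678888, plus strand): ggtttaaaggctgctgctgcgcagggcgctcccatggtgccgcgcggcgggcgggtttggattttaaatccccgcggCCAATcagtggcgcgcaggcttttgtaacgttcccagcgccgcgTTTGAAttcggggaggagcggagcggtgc
CDC20 (chr1:43358831-43358980, plus strand): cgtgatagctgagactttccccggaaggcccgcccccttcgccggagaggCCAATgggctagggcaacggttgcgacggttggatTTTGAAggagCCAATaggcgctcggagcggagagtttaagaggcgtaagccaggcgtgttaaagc
HMMR (chr5:163460482-163460631, plus strand): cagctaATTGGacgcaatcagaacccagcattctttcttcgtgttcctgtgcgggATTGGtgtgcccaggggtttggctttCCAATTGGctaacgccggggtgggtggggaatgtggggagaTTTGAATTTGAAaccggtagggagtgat
PRR11 (chr17:59155596-59155745, plus strand): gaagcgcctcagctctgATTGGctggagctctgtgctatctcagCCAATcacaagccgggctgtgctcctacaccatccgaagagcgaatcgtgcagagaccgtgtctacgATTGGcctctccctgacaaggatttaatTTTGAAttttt
CENPE (chr4:103198344-103198493, minus strand): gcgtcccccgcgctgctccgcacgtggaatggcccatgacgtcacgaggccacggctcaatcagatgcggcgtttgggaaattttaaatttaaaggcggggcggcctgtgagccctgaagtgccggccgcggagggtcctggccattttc

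CCNB2 and PLK1 share a layout in which CCAAT precedes TTTGAA at -29, counted backwards from the start of transcription. In the printed bases CCNB2 had CCAAT at -120, -87 and -54, with a further match at -244 outside them, and PLK1 had 1 at -73. HMMR held TTTGAA at -28 and again at -22, next to CCAAT and ATTGG that overlap each other at -69 and -66. These matches are a description of the letters and not of bound sites. With every listed start counted, 34 of 53 members (64.2%) held both, against 9.02% of all genes in the table. By the letters in the window of the first listed start, members with both had a median log2 change with H2O2 of -1.32. Those with the CHR letters alone (9 genes) had -1.02 and those with CCAAT alone (8 genes) -1.21. The 4 with neither in that window (CDC25B, CDC25C, CENPE and KIF2C) had -1.10. Absence of these exact letters from 1 window does not show that a promoter lacks the elements. The ranges of these sets overlapped, from -2.10 to -0.68 with both and from -1.86 to -0.61 with neither.

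H2O2 lowered the mRNA of the mitosis genes in both lines and with both constructs. Across the 4 pairs of H2O2 and PBS libraries, 59 of the 60 members fell, against 12.7% of all genes tested, and the median log2 change of the members was -1.23 against -0.04 over all genes. In 56 members every H2O2 library lay below every PBS library in CPM, which held for 5.45% of all genes tested. The 60 genes together took 0.762% to 0.810% of all counts with PBS and 0.299% to 0.409% with H2O2. Their summed CPM with H2O2 was 41.5% of the PBS value in 22RV1 vector, 36.2% in 22RV1 PAGE4, 42.9% in DU145 vector and 48.6% in DU145 PAGE4. SKA1, part of the complex that couples kinetochores to microtubule ends, was the 1 member not called, at -0.23 ± 0.11 (SE, adjusted p = 0.183).

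**Figure D1:**
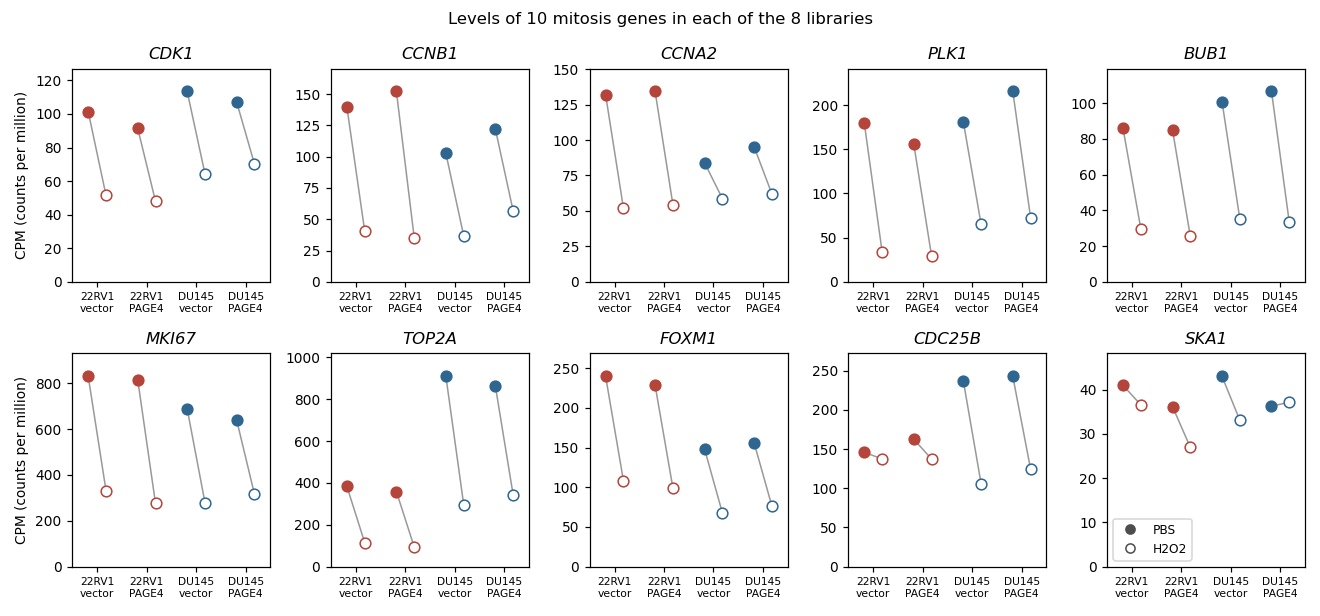
Level of 10 mitosis genes in each of the 8 libraries, as CPM on linear axes that start at 0. Filled points are PBS, open points H2O2, red 22RV1 and blue DU145, and grey lines join the 2 libraries of a culture. TOP2A falls from 909 to 297 CPM in DU145 vector cells, CDC25B is nearly level in 22RV1, and SKA1 is lower with H2O2 in 3 pairs and slightly higher in DU145 PAGE4 cells.

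The same direction was seen in each pair taken alone, where 1 library stands against 1 and no test is possible. Over 1.5-fold lower with H2O2 were 57 members in 22RV1 vector cells (19.7% of all genes), 57 in 22RV1 PAGE4 cells (15.7%), 56 in DU145 vector cells (21.3%) and 51 in DU145 PAGE4 cells (21.9%). No member was over 1.5-fold higher in any of the 4. The median log2 change of the members was -1.21, -1.46, -1.14 and -0.91 in that order. Within a line the 2 pairs, which share no library, gave similar changes across the 60 genes. Pearson's r of the log2 changes across genes was 0.91 in 22RV1 and 0.89 in DU145. Between the lines r was 0.63 to 0.69. The 60 genes are not independent of each other, so these r values are descriptions.

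**Figure D2:**
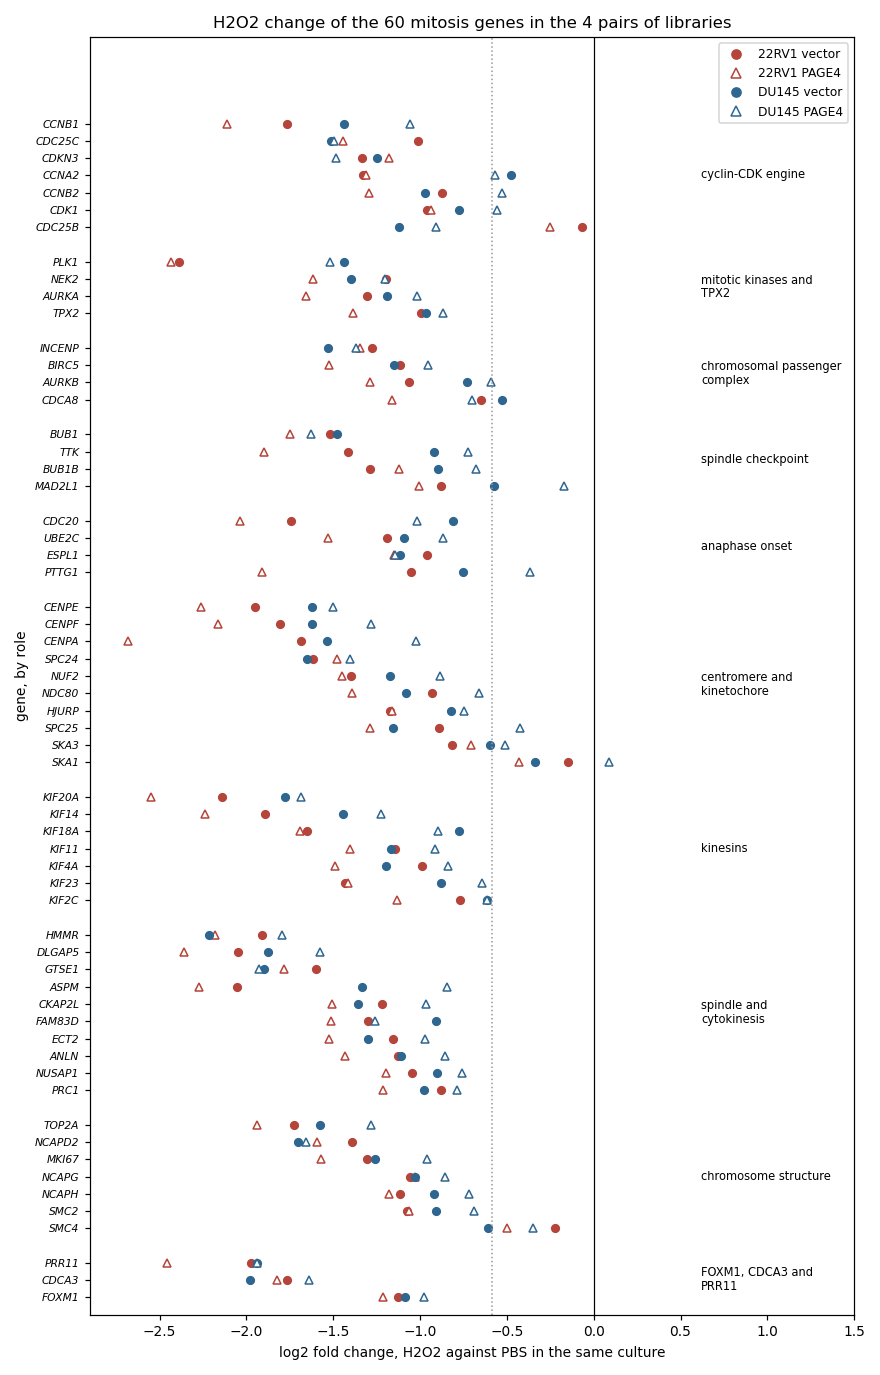
log2 fold change with H2O2 against PBS for the 60 genes, grouped by role and ordered by their change across the 4 pairs. Red is 22RV1 and blue DU145, filled circles are vector and open triangles PAGE4, the dotted line marks a 1.5-fold fall, and only SKA1 in DU145 PAGE4 cells lies above 0, at 0.09.

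In the cyclin and CDK1 engine that starts mitosis, all 7 genes fell across the 4 pairs, with a median log2 change of -0.95. CDK1, the mitotic kinase, was at 101 and 91.5 CPM with PBS and 51.5 and 48.0 CPM with H2O2 (vector and PAGE4 in that order, here and below) in 22RV1. The DU145 values were 113 and 107 CPM with PBS and 64.3 and 70.2 CPM with H2O2. All 4 H2O2 values lay below all 4 PBS values, and the log2 change across the pairs was -0.83 ± 0.10 (SE, adjusted p = 0.00226). CCNB1, the cyclin B1 that activates CDK1 at entry into mitosis, was at 139.6 and 152 CPM with PBS and 40.5 and 35.3 CPM with H2O2 in 22RV1. Its DU145 libraries stood at 103 and 122 CPM with PBS and 36.8 and 56.5 CPM with H2O2. The groups did not overlap, and CCNB1 changed by -1.62 ± 0.16 (SE, adjusted p = 0.0014). CCNA2, cyclin A2, was at 132 and 134 CPM with PBS and 52.0 and 54.3 CPM with H2O2 in 22RV1 and at 83.9 and 95.3 CPM with PBS and 58.7 and 61.9 CPM with H2O2 in DU145. It fell less in DU145, with groups that were still apart, and across the pairs its change was -0.95 ± 0.16 (SE, adjusted p = 0.00789).

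CDC25B, a phosphatase that removes the inhibitory phosphates from CDK1, was at 146 and 162 CPM with PBS and 137 and 137 CPM with H2O2 in 22RV1. DU145 cells held 237 and 243 CPM with PBS and 106 and 124 CPM with H2O2. The 22RV1 libraries lay within a narrow band and the DU145 libraries fell apart into high PBS and low H2O2 values. Across the 4 pairs the change was -0.61 ± 0.18 (SE, adjusted p = 0.0496), just under the limit. That call was lost with total-count scaling and without either DU145 pair. The related phosphatase CDC25C and CDKN3, a phosphatase that acts on CDKs, fell in both lines with no called difference between them, at -1.22 ± 0.16 and -1.26 ± 0.13 in 22RV1 and -1.55 ± 0.16 and -1.42 ± 0.13 in DU145 (log2 ± SE).

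The mitotic kinases PLK1, AURKA and NEK2 and the AURKA activator TPX2 all fell, with a median of -1.35. PLK1, which acts in centrosome maturation, kinetochore attachment and cytokinesis, was at 179 and 156 CPM with PBS and 33.9 and 29.0 CPM with H2O2 in 22RV1. DU145 libraries gave 181 and 215 CPM with PBS and 65.1 and 72.5 CPM with H2O2. PLK1 with H2O2 was 18.8% of its PBS level in 22RV1, the lowest share of any member in that line, and 34.7% in DU145. Its log2 change was -2.41 ± 0.09 (SE, adjusted p = 2.96e-13) in 22RV1 and -1.52 ± 0.08 (SE, adjusted p = 6.15e-11) in DU145. Such p-values within a line, here and below, rest on 2 pairs and on a spread shared across lines and genes. Of the PLK1 exon bases, 11.6% overlap a non-coding gene on the other strand. AURKA, the centrosomal Aurora kinase, changed by -1.32 ± 0.12 and TPX2 by -1.08 ± 0.10 across the pairs.

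The chromosomal passenger complex corrects faulty attachments, and its kinase AURKB, its scaffold INCENP, and BIRC5 and CDCA8 (survivin and borealin) all fell. Their log2 changes across the pairs were -0.94 ± 0.12, -1.41 ± 0.09, -1.21 ± 0.10 and -0.79 ± 0.12 in that order. The spindle checkpoint genes BUB1, BUB1B, TTK and MAD2L1, which hold back anaphase, fell with a median of -1.14. BUB1 was at 85.8 and 84.9 CPM with PBS and 29.6 and 25.4 CPM with H2O2 in 22RV1. Its levels in DU145 were 101 and 107 CPM with PBS and 35.2 and 33.2 CPM with H2O2. The H2O2 values of BUB1 formed a tight low set in both lines, and the change was -1.62 ± 0.09 (SE, adjusted p = 0.000419). MAD2L1, which binds and inhibits CDC20, fell least of the 4, at -0.68 ± 0.14 (SE, adjusted p = 0.0136), and was not called without either 22RV1 pair.

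Anaphase begins when CDC20 activates the anaphase-promoting complex, UBE2C supplies it with ubiquitin, securin (PTTG1) is destroyed and separase (ESPL1) cuts cohesin. These 4 fell, with a median of -1.16. CDC20 was at 231 and 229.7 CPM with PBS and 68.3 and 56.2 CPM with H2O2 in 22RV1. The DU145 values were 226 and 292 CPM with PBS and 125 and 139 CPM with H2O2. Both lines were clearly lower with H2O2, 22RV1 more so, and the change across the pairs was -1.43 ± 0.20 (SE, adjusted p = 0.00413). PTTG1 was at 69.3 and 69.0 CPM with PBS and 33.1 and 18.4 CPM with H2O2 in 22RV1, with the PAGE4 H2O2 library the lowest of all, and it was not called across the pairs without 22RV1 vector. Its near copy PTTG2 had 0 to 3 counts a library.

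Of the 10 centromere and kinetochore genes 9 fell, with a median of -1.15 and SKA1 as the exception. CENPE, the kinetochore motor that carries chromosomes to the spindle equator, was at 72.3 and 60.9 CPM with PBS and 18.5 and 12.7 CPM with H2O2 in 22RV1. DU145 cells held 127 and 141 CPM with PBS and 40.2 and 47.8 CPM with H2O2. CENPE with H2O2 was 23.4% of its PBS level in 22RV1 and 32.8% in DU145, and its change across the pairs was -1.86 ± 0.13 (SE, adjusted p = 0.000778). CENPA, the histone H3 variant that marks centromeres, was the member with the fewest counts and was at 9.80 and 9.53 CPM with PBS and 3.01 and 1.49 CPM with H2O2 in 22RV1. Its DU145 libraries stood at 22.0 and 19.9 CPM with PBS and 7.35 and 9.41 CPM with H2O2. CENPA changed by -1.72 ± 0.25 (SE, adjusted p = 0.00492), with the largest standard error of the members named here. SKA1 was at 41.0 and 36.2 CPM with PBS and 36.6 and 27.0 CPM with H2O2 in 22RV1 and at 43.03 and 36.27 CPM with PBS and 33.10 and 37.18 CPM with H2O2 in DU145. The PBS and H2O2 values of SKA1 overlapped in both lines, though it fell in both 22RV1 pairs and in DU145 vector cells. SKA3 of the same complex, which was called, changed by -0.69 ± 0.11.

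All 7 kinesins fell, with a median of -1.18. KIF20A, which acts at the central spindle and in cytokinesis, was at 93.5 and 99.0 CPM with PBS and 21.0 and 17.0 CPM with H2O2 in 22RV1. DU145 libraries gave 117 and 121 CPM with PBS and 33.3 and 36.3 CPM with H2O2. The groups were far apart, and KIF20A changed by -2.06 ± 0.15 (SE, adjusted p = 0.000778). KIF11, the motor that pushes the spindle poles apart, changed by -1.18 ± 0.10, and KIF2C, which shortens microtubules at kinetochores, changed least of the 7, at -0.81 ± 0.11. KIF4A has a near copy without introns, KIF4B, which had 0 to 5 counts a library.

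The 10 spindle and cytokinesis genes all fell, with a median of -1.28. HMMR, a spindle and centrosome protein also known as a hyaluronan receptor, was at 92.2 and 80.8 CPM with PBS and 24.3 and 17.9 CPM with H2O2 in 22RV1. Its levels in DU145 were 64.0 and 58.5 CPM with PBS and 13.4 and 16.2 CPM with H2O2. HMMR was far lower with H2O2 in both lines, with log2 changes of -2.04 ± 0.12 (SE, adjusted p = 1.23e-10) in 22RV1 and -2.05 ± 0.12 (SE, adjusted p = 1.48e-10) in DU145. DLGAP5, which stabilises spindle fibres at kinetochores, was at 41.8 and 46.0 CPM with PBS and 9.99 and 9.02 CPM with H2O2 in 22RV1. The DU145 values were 95.9 and 86.0 CPM with PBS and 25.4 and 27.8 CPM with H2O2. It was higher in DU145 with either treatment, and its change across the pairs was -1.99 ± 0.13 (SE, adjusted p = 0.000685). GTSE1, a microtubule-binding protein that also restrains p53, was at 93.7 and 92.4 CPM with PBS and 30.6 and 27.0 CPM with H2O2 in 22RV1. Its DU145 values were 61.3 and 70.1 CPM with PBS and 15.9 and 17.7 CPM with H2O2, and the change in DU145 was -1.96 ± 0.11 (SE, adjusted p = 4.79e-11). PRC1, which bundles the central spindle, and NUSAP1 also fell, PRC1 with a log2 change of -0.99 ± 0.09, but 57.6% and 81.4% of their exon bases are shared with a second gene model on the same strand.

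The chromosome structure genes all fell, with a median of -1.02. MKI67, which coats mitotic chromosomes and is the antigen of the Ki-67 proliferation stain, was at 830.3 and 816 CPM with PBS and 332 and 276 CPM with H2O2 in 22RV1. DU145 cells held 689 and 639 CPM with PBS and 279 and 316 CPM with H2O2. Its groups lay far apart, with a change of -1.30 ± 0.11 (SE, adjusted p = 0.000897). TOP2A, the topoisomerase that untangles sister chromatids, was at 383 and 359 CPM with PBS and 115 and 94.2 CPM with H2O2 in 22RV1 and at 909 and 863 CPM with PBS and 297 and 342 CPM with H2O2 in DU145. Treated DU145 cells still held nearly as much TOP2A mRNA as untreated 22RV1 cells, and the change was -1.66 ± 0.11 (SE, adjusted p = 0.000685). SMC4, a core subunit of condensin, was at 137 and 113 CPM with PBS and 116 and 80.3 CPM with H2O2 in 22RV1. DU145 libraries gave 377 and 358 CPM with PBS and 240.5 and 270.3 CPM with H2O2. SMC4 had the smallest fall of the called members, at -0.45 ± 0.09 (SE, adjusted p = 0.015), a call that was lost without the DU145 vector pair. In 22RV1 its PBS and H2O2 values overlapped between cultures, but it fell in both pairs and was called lower in that line. Of its exon bases, 19.0% overlap TRIM59 on the other strand. The other condensin I subunits fell more, from -0.96 ± 0.09 for SMC2 to -1.61 ± 0.09 for NCAPD2.

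FOXM1, the transcription factor that drives the late wave with B-MYB, was at 239.6 and 228 CPM with PBS and 108 and 99.0 CPM with H2O2 in 22RV1. Its levels in DU145 were 148 and 156 CPM with PBS and 67.6 and 76.3 CPM with H2O2. FOXM1 was higher in 22RV1 under either treatment, fell in both lines, and changed by -1.13 ± 0.08 (SE, adjusted p = 0.000778) across the pairs. PRR11 had the largest fall of all members and was at 34.1 and 29.6 CPM with PBS and 8.56 and 5.41 CPM with H2O2 in 22RV1. The DU145 values were 111 and 123 CPM with PBS and 28.2 and 30.8 CPM with H2O2. Within each line PRR11 was far lower with H2O2, but its treated DU145 values reached the untreated 22RV1 values, and the change was -2.10 ± 0.12 (SE, adjusted p = 0.000419). CDCA3, a protein that helps degrade the mitotic inhibitor WEE1, was at 92.2 and 80.0 CPM with PBS and 26.9 and 22.7 CPM with H2O2 in 22RV1. Its DU145 libraries stood at 82.4 and 82.7 CPM with PBS and 20.3 and 25.5 CPM with H2O2. The groups of CDCA3 were apart in both lines and its change in DU145 was -1.85 ± 0.11 (SE, adjusted p = 1.06e-10).

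Other genes of mitosis and its control, from lists that hold no member, had a median change closer to 0 than that of the members. Members and lists were chosen with earlier results of these data known, so the gap between them is a description only. Of 83 such genes 35 were lower, 2 were higher and 46 were not called across the 4 pairs, with a median of -0.31. Over all genes 12.7% were lower and 2026 of 19784 were higher, so the lower share of these lists was still above that of all genes. The 17 subunits and regulators of the anaphase-promoting complex held 6 lower and 1 higher (ANAPC10, 0.46), with a median of -0.22. Among the 14 genes listed as MuvB, B-MYB, E2F and NF-Y regulators, 5 were lower and none higher. MYBL2, which encodes B-MYB, was at -0.37 and RBL2, which encodes p130, was at -0.90. The 24 further centromere and kinetochore genes held 11 lower and none higher, with CENPI at -1.65 and KNTC1 at -1.16. Of the 12 cohesin genes 6 were lower and 1 higher (WAPL, which releases cohesin, 0.34), with SGO2 at -1.23, and of the 16 entry and exit regulators 7 were lower and none higher, with CIT (citron kinase) at -1.34 and CCNF at -1.18. The genes named from these lists were picked with their values in view.

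Genes of DNA replication and the G1/S transition offer a comparison at the other end of the cycle. Of 32 such genes 12 were lower and none higher across the 4 pairs, with a median of -0.30, where 12.7% of all genes were lower. The lines differed for this list, with 18 genes called more negative and 1 more positive in 22RV1 (median difference -0.56), where 8.87% of all genes were more negative. In 22RV1 26 of the 32 were lower (median -0.64), against 16.9% of all genes. In DU145 9 were lower and 6 higher (median -0.07), against 22.8% of all genes lower and 3793 of 19784 higher, shares close to those of the list. The summed CPM of the list with H2O2 was 69.2% and 63.5% of PBS in 22RV1 vector and PAGE4 cells and 95.0% and 105% in DU145, whereas the 60 mitosis genes stood at no more than 48.6% in any of the 4. In 22RV1 the 5 luminal markers named above were lower with H2O2 as well, HOXB13 for example at 187 and 215 CPM with PBS and 69.6 and 94.8 CPM with H2O2, and their part in the result was not tested. No test set the lists against each other, and CDC25A is in both this list and that of entry and exit regulators.

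Both lines lowered the mitosis genes, but the size of the fall differed for some of them. With H2O2, 58 of 60 fell in 22RV1 (16.9% of all genes, CDC25B and SKA1 not called) with a median of -1.33. In DU145 59 of 60 fell (22.8% of all genes, SKA1 not called) with a median of -1.08. The difference between the lines, tested directly as 22RV1 minus DU145, was more negative in 22RV1 for 16 members, against 8.87% of all genes, and more positive for 1, CDC25B. The median difference was -0.25 over the members and 0.04 over all genes, and 49 of the 60 estimates were negative. The 16 are ASPM, CDC20, PLK1, PTTG1, KIF18A, TTK, CCNA2, KIF14, CCNB1, KIF23, KIF20A, MAD2L1, CENPE, CENPF, AURKB and TOP2A, of which 4 are kinesins. Without the DU145 PAGE4 pair 5 members were called, and without the 22RV1 vector pair 33 were.

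**Figure D3:**
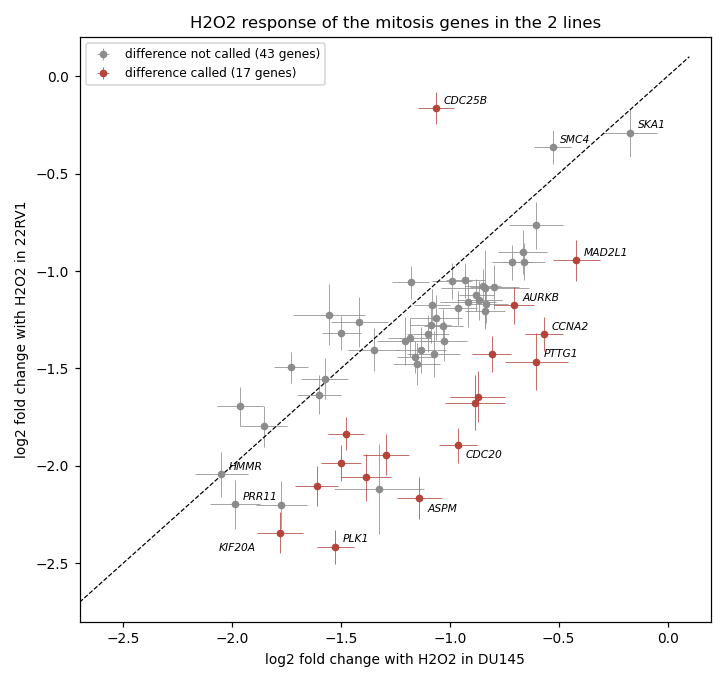
log2 fold change with H2O2 in 22RV1 (vertical) against DU145 (horizontal) for the 60 genes, with standard errors from the edgeR fit. The 17 red points have a called difference between the lines, the dashed line marks equal change, 16 of them lie below it, and CDC25B lies above.

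CDC25B differed by 0.90 ± 0.12 (SE, adjusted p = 1.91e-05), from -0.16 ± 0.08 (SE, adjusted p = 0.144) in 22RV1 to -1.06 ± 0.08 (SE, adjusted p = 7.58e-09) in DU145. ASPM, which gathers microtubule ends at the spindle poles, differed by -1.03 ± 0.14 (SE, adjusted p = 4.14e-05). It was at 179.7 and 168 CPM with PBS and 42.8 and 35.0 CPM with H2O2 in 22RV1 and at 172 and 148 CPM with PBS and 66.0 and 79.1 CPM with H2O2 in DU145. The PBS values of ASPM in the lines overlapped and its H2O2 values were lower in 22RV1. CDC20 differed by -0.93 ± 0.12 (SE, adjusted p = 2.27e-05) and PLK1 by -0.89 ± 0.12 (SE, adjusted p = 2.26e-05). For PTTG1 the difference was -0.86 ± 0.20 (SE, adjusted p = 0.00517), not called without the DU145 PAGE4 pair or by DESeq2, with DU145 libraries at 58.9 and 61.5 CPM with PBS and 34.0 and 46.0 CPM with H2O2. CCNA2 differed by -0.76 ± 0.12 (SE, adjusted p = 0.000204) and CCNB1 by -0.65 ± 0.15 (SE, adjusted p = 0.00344), the latter not called without the DU145 PAGE4 pair, while CDK1 was not called at -0.24 ± 0.13 (SE, adjusted p = 0.207). For HMMR, BUB1, NEK2 and SPC24 the estimates were near 0, at 0.01 ± 0.16, -0.03 ± 0.14, -0.05 ± 0.16 and 0.02 ± 0.15 (log2 ± SE). CENPA had a large estimate of -0.79 ± 0.31 that was not called (adjusted p = 0.0816).

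Few genes of any kind were called for PAGE4 across the pairs or in DU145, and the counts of members are read against that. Across the 4 pairs of PAGE4 and vector libraries no member was called by edgeR, against 0.136% of all genes in either direction. DESeq2 also called 0. An unadjusted edgeR p under 0.05 was found for 1 member and for 1587 of the 19784 genes tested. In DU145 no member was called (0.323% of all genes) and DESeq2 called 0. There 10 members and 1627 of the 19784 genes had an unadjusted edgeR p under 0.05. The largest such change among the members in DU145 was CCNB1 at 0.42 ± 0.10 (SE, adjusted p = 0.104). In 22RV1 5 members (8.33%) were called lower with PAGE4, against 2.69% of all genes. An unadjusted edgeR p under 0.05 was found there for 19 members and for 3389 of the 19784 genes. Of the 60 estimates in 22RV1 48 were negative, with a median of -0.13 over the members and -0.01 over all genes. In DU145 48 of the 60 estimates were positive, with a median of 0.10. The 5 members called in 22RV1 included TTK at -0.46 ± 0.13 (SE, adjusted p = 0.0455) and SMC4 at -0.41 ± 0.09 (SE, adjusted p = 0.0069). The others called in that line were UBE2C at -0.39 ± 0.10 (SE, adjusted p = 0.0315) and AURKA at -0.38 ± 0.11 (SE, adjusted p = 0.0417). CENPE completed them at -0.37 ± 0.10 (SE, adjusted p = 0.0368). TTK, the kinase that starts the checkpoint signal, was at 38.7 and 32.4 CPM with PBS and 14.3 and 8.74 CPM with H2O2 in 22RV1. The gap of TTK between PAGE4 and vector was -0.71 on the log2 scale with H2O2 and -0.23 with PBS. UBE2C was at 91.6 and 77.8 CPM with PBS and 39.7 and 27.0 CPM with H2O2, and AURKA was at 70.9 and 60.4 CPM with PBS and 28.4 and 19.3 CPM with H2O2, both lower with PAGE4 under either treatment. In DU145, TTK stood at 54.7 and 51.1 CPM with PBS and 28.0 and 29.7 CPM with H2O2, UBE2C at 84.2 and 85.8 CPM with PBS and 38.4 and 45.4 CPM with H2O2 and AURKA at 79.7 and 85.3 CPM with PBS and 33.9 and 40.6 CPM with H2O2.

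These 5 calls rest on the pair of 22RV1 libraries with H2O2. Without that pair no member was called in 22RV1 and the 5 values were -0.22 to -0.27, and without the PBS pair 14 were called. DESeq2's Wald test called SMC4 alone of the 5. The PAGE4 library of the H2O2 pair also had the fewest counts of all, and the part of depth was not tested. The 22RV1 cultures also differed in genes far from mitosis, with EGFR at 200.3 CPM in vector and 45.5 CPM in PAGE4 cells with PBS, so that the culture and PAGE4 cannot be told apart. The effect of PAGE4 differed between the lines for 1 member (1.67%), against 2.49% of all genes. As 22RV1 minus DU145, 53 of the 60 estimates were negative, with a median of -0.25 over the members and 0.00 over all genes. For this difference 24 members and 2760 of the 19784 genes had an unadjusted edgeR p under 0.05. The member called was CENPE, at -0.57 ± 0.14 (SE, adjusted p = 0.0341), with 22RV1 lower and DU145 at 0.19 ± 0.10. The call of CENPE was lost with DESeq2's Wald test and without 3 of the 4 pairs, those other than 22RV1 PBS.

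In single pairs the members lay around 0 with PBS and to either side of it, by line, with H2O2. With PBS, no member was over 1.5-fold apart between PAGE4 and vector in 22RV1 (19.7% of all genes in either direction) or in DU145 (15.3%). The median log2 differences with PBS were -0.01 and 0.01, and 32 of 60 members in 22RV1 and 28 of 60 in DU145 were lower with PAGE4. With H2O2, 51 of 60 members were lower with PAGE4 in 22RV1, at a median of -0.26. There 4 members were over 1.5-fold lower (23.2% of all genes in either direction), CENPA at -1.01 (interval -1.56 to -0.50), PTTG1 at -0.84 (interval -0.99 to -0.70), TTK at -0.71 (interval -0.94 to -0.49) and PRR11 at -0.66 (interval -0.95 to -0.38). In DU145 with H2O2, 59 of 60 were higher with PAGE4, at a median of 0.20, and 1, CCNB1 at 0.63 (interval 0.51 to 0.76), was over 1.5-fold higher (15.2% of all genes in either direction). Under H2O2 the counting interval lay below 0 for 43 members and above 0 for 4 in 22RV1. In DU145 under H2O2 it lay above 0 for 40 and below 0 for 0. With PBS it also excluded 0 for many members, but on both sides. There it lay below 0 for 22 and above 0 for 16 in 22RV1, and below for 18 and above for 19 in DU145. Intervals were computed for the members only, so these counts have no share over all genes to be read against. Each of these is 1 library against 1, so that PAGE4 and the culture cannot be told apart. The change of the H2O2 response with PAGE4 was fitted as 1 term common to both lines, with 1 residual degree of freedom. It was called for no member (0.0404% of all genes) by edgeR and for none by DESeq2. An unadjusted edgeR p under 0.05 was found for 2 members and for 674 of the 19784 genes. In this term shifts of opposite sign in the lines cancel. From vector to PAGE4 cells the median member change with H2O2 went from -1.21 to -1.46 in 22RV1 and from -1.14 to -0.91 in DU145. A change of the response within each line was not tested.

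**Figure D4:**
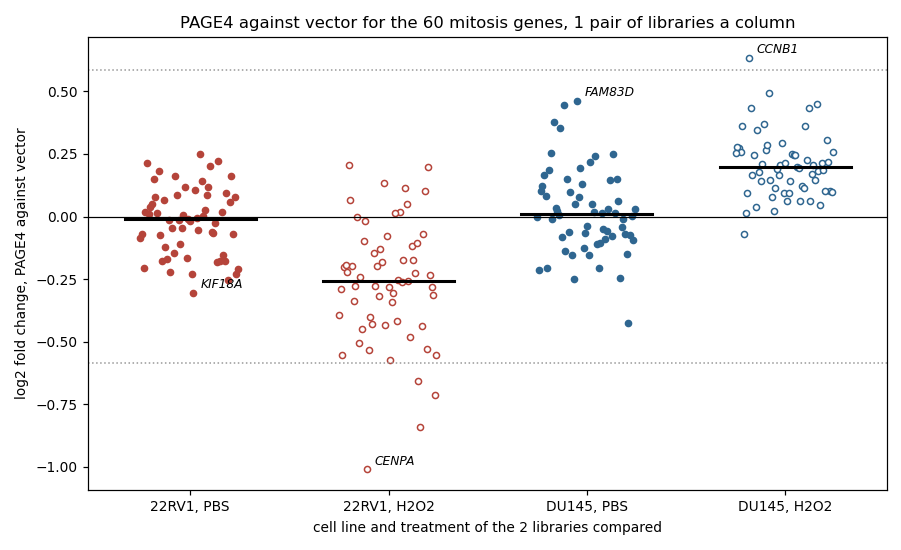
log2 fold change of PAGE4 against vector for the 60 genes (points) in 4 pairs of libraries, with the median as a black bar and dotted lines at 1.5-fold. The medians are -0.01 and 0.01 with PBS (filled) and -0.26 in 22RV1 and 0.20 in DU145 with H2O2 (open).

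Without H2O2 the mitosis genes differed between the lines about as often as other genes did, with 45 of 60 called (75.0%) against 69.3% of all genes. Of these 17 (28.3%) were higher in 22RV1, against 35.8% of all genes, 28 (46.7%) were higher in DU145, against 33.5%, and 15 were not called. With total-count scaling the split was 22 and 17, with the median of all genes at 0.22 in place of 0.05, and PLK1 (-0.24 with TMM) and BUB1 were among the calls lost. The median over the members was -0.20. Higher in 22RV1 were NEK2, a centrosome kinase, at 0.88 ± 0.11 (SE, adjusted p = 5.13e-07), HJURP, the chaperone that loads CENPA, at 0.76 ± 0.09 (SE, adjusted p = 5.7e-07), NUF2 of the NDC80 complex at 0.66 ± 0.11 (SE, adjusted p = 3.6e-05) and FOXM1 at 0.62 ± 0.08 (SE, adjusted p = 8.61e-07). Higher in DU145 were PRR11 at -1.88 ± 0.11 (SE, adjusted p = 6.59e-12), SMC4 at -1.56 ± 0.09 (SE, adjusted p = 2.56e-12), TOP2A at -1.26 ± 0.08 (SE, adjusted p = 2.92e-11) and CENPA at -1.11 ± 0.20 (SE, adjusted p = 5.41e-05). These 8 kept their direction and call with total counts. HJURP and CENPA, chaperone and cargo, stood in opposite directions, HJURP at 89.2 and 95.1 CPM with PBS and 39.1 and 42.8 CPM with H2O2 in 22RV1 and at 52.1 and 56.9 CPM with PBS and 28.6 and 32.7 CPM with H2O2 in DU145. NEK2 was at 92.5 and 87.2 CPM with PBS and 40.0 and 28.6 CPM with H2O2 in 22RV1 and at 48.3 and 49.3 CPM with PBS and 17.8 and 20.6 CPM with H2O2 in DU145, higher in 22RV1 under either treatment. NUF2 was at 57.6 and 54.1 CPM with PBS and 21.6 and 19.9 CPM with H2O2 in 22RV1 and at 33.5 and 37.1 CPM with PBS and 14.5 and 19.3 CPM with H2O2 in DU145. Whether the lines divide at different rates was not measured in these files.

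**Figure D5:**
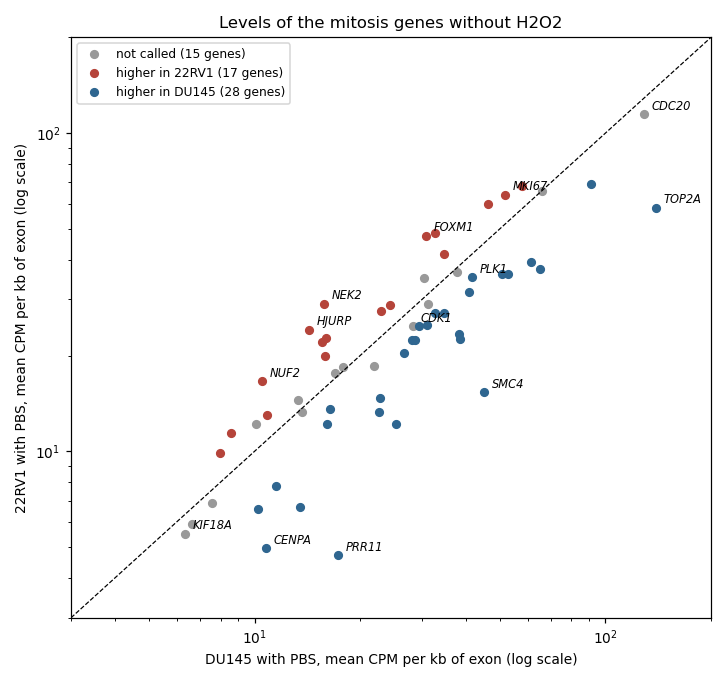
Mean CPM per kb of exon with PBS in 22RV1 (vertical) and DU145 (horizontal) for the 60 genes, on log axes, with the dashed line at equal levels. PRR11, SMC4, TOP2A and CENPA lie farthest below the line and NEK2 and HJURP above it.

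Per kb of exon, levels with PBS spanned from 4.72 CPM per kb for PRR11 to 115 for CDC20 in 22RV1, with a median of 22.6. CENPA (4.96) and KIF18A (5.51) were next to the lowest, and TPX2 (69.3) and NCAPD2 (68.3) came after CDC20. In DU145 the lowest was KIF18A, a motor that damps chromosome movements, at 6.33 CPM per kb, and the highest was TOP2A at 139, followed by CDC20 at 129, with a median of 26.0. KIF18A was at 27.7 and 22.0 CPM with PBS and 8.72 and 6.86 CPM with H2O2 in 22RV1 and at 26.4 and 30.7 CPM with PBS and 15.0 and 15.9 CPM with H2O2 in DU145. CDK1, at 24.7 and 28.2 CPM per kb, lay near the middle in both lines. On this scale CCNB1 stood above CDK1 in both lines. The exon lengths are unions over all annotated transcripts (GENCODE release 44, GRCh38), which can exceed the length of the mRNA that is made.

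Positions of the members most discussed are, in GRCh38, chr16:23677656-23690367 (plus strand) for PLK1, chr20:3786772-3806121 (plus strand) for CDC25B, chr18:50375040-50394168 (plus strand) for SKA1, chr5:163460203-163491941 (plus strand) for HMMR, chr17:59155732-59206709 (plus strand) for PRR11, chr1:43358981-43363203 (plus strand) for CDC20 and chr4:103105349-103198445 (minus strand) for CENPE, each as the whole annotated gene with exons and introns. Counts are over exons. Of the 60 members, 23 share exon bases with another annotated gene, and for 7 the share was above 10% (PLK1, NUSAP1, PRC1, NCAPG, SMC4, FOXM1 and CDCA3). The strand setting of the counting is not given in the sources used here, so reads of the partner gene cannot be told apart from those of the 7. For NUSAP1 and PRC1 the largest overlap is on the same strand, where no strand setting would separate the reads.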

How the data were processed

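RNA-seq was done on 8 libraries, 1 per condition. Per the labels and the study's methods, alignment by the authors was to GRCh38 (HISAT2 2.1.0), gene counting was by featureCounts 1.6.0, and the raw counts were deposited as 1 table per line. The annotation and strand setting are not given in the sources used here. In the tables, 26 gene symbols had been turned into dates and no member was among them. The members, gene lists and tests were chosen with earlier results of these data known.

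The 2 tables were joined by symbol. Genes passing filterByExpr grouped by line (19784) were fitted in edgeR 4.0.16 (R 4.3.3) with TMM factors and the quasi-likelihood test, Benjamini-Hochberg over all genes, limit 0.05. H2O2 and PAGE4 across pairs used the 4 pairs as blocks (3 residual degrees of freedom). Effects within lines and line differences came from 1 fit with line, construct within line and H2O2 within line (2 residual degrees of freedom). All repeats of a treatment differ in construct or line, so p-values rest on the spread between such pairs, not between replicate cultures. The spread of each gene was also drawn towards that of all genes, and tests within a line used 1 spread for both lines. The small p-values within a line rest on 2 pairs and should not be read as more certain than those across the pairs. A ± value after a log2 change is its standard error. Single pairs used DESeq2 1.42.0 size factors within a line, mean normalised counts of 10 or more, 0.5 as pseudocount and a 1.5-fold limit, with exact (Clopper-Pearson) 95% intervals. PCR duplicates were not identified, so intervals cover counting error only. Alternatives were DESeq2 size factors, total counts, no filter, DESeq2's Wald test, other blocks, each pair left out, and other limits for single pairs. Members given with values in every library were CDK1, CCNB1, CCNA2, PLK1, BUB1, MKI67, TOP2A and FOXM1, up to 4 called members per direction and comparison with the largest changes, and the highest and lowest level per length in each line. Other members were added to fill out a role. The fits were tested on simulated data in which 200 of 19784 genes changed 4-fold. Of the 200, 168 were recovered for H2O2 across the 4 pairs, 135 for H2O2 in 22RV1 and 130 for PAGE4 in DU145. False calls numbered 11, 17 and 8 in that order. Over genes of all levels, part of the true changes of this size can thus be missed. The simulated means held no difference between the lines, and all 3 used the spread from the fit of H2O2 across the pairs. These figures therefore give no rate for the members.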

Additional observations from a re-analysis of the deposited data

Results flagged for a closer look

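The response to H2O2 differed between the lines, by the test of the difference itself, for 17 members. As 22RV1 minus DU145 on the log2 scale, the values were -1.03 for ASPM, -0.93 for CDC20, -0.89 for PLK1, -0.86 for PTTG1, -0.79 for KIF18A, -0.77 for TTK, -0.76 for CCNA2 and -0.68 for KIF14. They were -0.65 for CCNB1, -0.62 for KIF23, -0.56 for KIF20A, -0.53 for MAD2L1, -0.49 for CENPE, -0.49 for CENPF, -0.47 for AURKB and -0.36 for TOP2A. CDC25B had the opposite sign, at 0.90. The difference for PAGE4 against vector was called for CENPE, at -0.57. Each line had 2 pairs of libraries, and no explanation was tested.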

How the results depend on the processing

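The calls for H2O2 held best. Across the 4 pairs, 22RV1 and DU145, every alternative kept the count of called members within 56 to 59, and every called member stayed lower. The difference between the lines gave 17 members and 5 to 33 when 1 pair was left out, 5 without DU145 PAGE4 and 33 without 22RV1 vector. PAGE4 in 22RV1 gave 5 members, 3 with DESeq2 size factors, 8 with no filter, 1 with the Wald test of DESeq2 and 0 to 14 when 1 pair was left out. PAGE4 in DU145 gave 0, 1 with no filter and 3 from the DU145 libraries alone (CCNB1, BIRC5 and CDC20). The PAGE4 difference between the lines gave 1, then 3 with total counts, 9 with no filter, 0 with the Wald test and 0 to 17 when 1 pair was left out, 17 without 22RV1 PBS. PAGE4 across the pairs and the change of the H2O2 response with PAGE4 stayed at 0 in every alternative run. Both are terms common to the lines, in which shifts of opposite sign cancel. For 22RV1 against DU145 with PBS, 45 members became 30 to 37 when 1 library was left out. Where a pair is left out, the lone pair of a line is assumed to vary like the others. The cause of these shifts was not tested. Total counts moved the median log2 change of all genes with H2O2 in 22RV1 from -0.01 to 0.11. With 1 library a condition, no spread between replicate cultures could be measured, and CENPA, with the fewest counts, had the largest standard error of the members across the pairs.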
